A study of Homo sapiens with 24 samples.

Results

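Solute carriers are the membrane proteins through which cells take up, release and move between compartments amino acids, sugars, metals, ions and other small molecules. The genes described here are the solute carriers outside mitochondria, chosen as symbols made of SLC, a family number, A and a member number, without the mitochondrial family SLC25 and without SLC2A1, SLC7A11, SLC40A1 and SLC11A2. Of 286 such genes in the count table, 112 (39.2%) had no count of 0 in any library and are called the members below. They are part of 12058 genes that met this filter among 54583 listed. Of the other 174 candidates, 62 had a count of 0 in every library and 10 had it in exactly 1 library. Because the filter asks for reads in every library, a carrier that fell to 0 in any group would not be a member.

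The libraries come from PANC-1, a human cell line derived from a carcinoma of the pancreatic duct, and the comparison asks which mRNAs change in amount or in ribosome association when cells meet CID661578 or cercosporamide. Plates were exposed for 6 h to the solvent DMSO, to 40 µM CID661578 or to 5 µM cercosporamide, with 4 biological replicates each. From each of these 12 plates, total cytosolic RNA and polysome-associated RNA, the RNA carrying several ribosomes, were sequenced with Smart-seq2, so there are 6 groups of 4 libraries and 24 libraries in all. The sample labels name RPMI as the medium and the methods of the study name DMEM.

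Carriers of a family often work in pairs or cycles. The heavy chain SLC3A2 brings light chains such as SLC7A5 and SLC7A6 to the surface, and these exchange internal for external amino acids. Zinc enters the cytosol through SLC39 proteins and leaves it through SLC30 proteins, while SLC16 proteins move lactate together with protons. Pancreatic duct cells are known for secretion of bicarbonate, which depends on SLC4, SLC9 and SLC26 exchangers.

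Reads on genes ranged from 9268041 to 12184749 in 23 libraries. The polysome-associated library of replicate 4 with cercosporamide held 1592459, and 93 of the 112 members had their lowest count there. The numbers of called members over all classes that use it are therefore also given without it, those of single classes and other lists are not, and a call described for a single gene that was lost without it is named. The lowest count of any member was 1, and 15 members had a lowest count below 5, which limits precision for those genes. Levels are printed as CPM, that is, scaled to a common library size with TMM factors. SE is the approximate standard error of a log2 change, its size divided by the square root of the edgeR F statistic. Since no spike-in RNA is listed, each change is relative to the other genes of a library, and bulk libraries cannot tell fewer expressing cells from less RNA per cell. The counting ignored strand, counted a read with several alignments at each and left out reads on overlapping genes, so values of SLC7A5 and SLC6A8, which have near-identical pseudogene copies, and of SLC5A3, which lies within the span of MRPS6, are uncertain.

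The cell line label was checked against marker counts. In total RNA with DMSO, KRT8 had between 48095 and 63589 counts, KRT18 between 20696 and 49280, KRT19 between 10798 and 20851 and VIM between 8808 and 13852. KRT7 had 169 to 264 counts and SOX9 99 to 262 in these libraries. The duct gene CFTR had 0 counts in all 24 libraries, as did PRSS1, AMY2A, INS, SST, CHGA, PTPRC and CDH5. CD68, listed as an immune marker, had 5281 to 6107 counts in the same 4 libraries. The label therefore stands on keratins and vimentin, and CFTR was absent at this depth.

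By class, 23 members carry amino acids, 21 metals, 20 ions, 11 sugars, 8 vitamins, 7 organic ions, 5 each monocarboxylates, nucleosides and nucleotide sugars or acetyl-CoA, and 4 lipids or choline, while 3 were not assigned. Members took 0.606% to 0.858% of the reads in total RNA with DMSO and 0.848% to 1.28% in polysome-associated RNA with DMSO. Per kb of transcript in total RNA with DMSO, SLC3A2 was the most abundant member at 646 ± 392 CPM per kb (SD, n = 4). The nucleoside carrier SLC29A1 followed at 335 ± 65 CPM per kb, then the zinc carriers SLC39A1 at 244 ± 27.3 CPM per kb and SLC39A7 at 201 ± 47.4 CPM per kb, and the sugar carrier SLC50A1 at 193 ± 33.8 CPM per kb (SD, n = 4 each). The lowest SLC3A2 library lay above every SLC29A1 library. The values of SLC29A1, SLC39A1 and SLC39A7 overlapped, as did those of SLC39A1, SLC39A7 and SLC50A1. Below SLC3A2 only SLC29A1 (lowest 241.7) and SLC50A1 (highest 233.6 CPM per kb) were separated, and the rest of the order is not resolved. The 5 most abundant members made up 57.9% of the summed level per kb, and the median member had 4.26 CPM per kb beside 4.80 over 11571 tested genes with a length.

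With DMSO alone, more members were enriched than depleted in the polysome-associated fraction. At an adjusted p below 0.15 and a difference above 1.2-fold (quasi-likelihood test in edgeR, Benjamini-Hochberg adjusted), 40 members were higher in polysome-associated than in total RNA and 16 were lower, where the tested genes had 27.7% higher and 30.6% lower. The median difference was 0.25 on the log2 scale for members and -0.02 for all tested genes. When each fraction was scaled on its own, which moved the median of all genes to 0.26, 61 members were higher and 8 lower. That fit called 4938 of all 12058 genes higher and 2541 lower. With no filter the split was 44 to 10, beside 3845 higher and 3459 lower of 28470 genes. Among ion carriers 13 of 20 were higher and 1 was lower, among amino acid carriers 12 of 23 and 2, and among metal carriers 4 of 21 and 6. The 7 organic ion carriers had no call, with differences below 0 for each.
The myo-inositol carrier SLC5A3, on chromosome 21 from 34073578 to 34106260, had 25.1, 35.1, 14 and 11 CPM in total RNA of DMSO replicates 1 to 4 and 61.3, 67.3, 45.7 and 59.2 CPM in polysome-associated RNA. All 4 polysome-associated values lay above the total RNA values, and the difference was 1.58 (SE 0.213, edgeR adjusted p = 1.7e-07). The lactate exporter SLC16A3 had 105, 95.8, 132 and 108 CPM in total and 223, 406, 296 and 304 CPM in polysome-associated RNA, a difference of 1.46 (SE 0.179, edgeR adjusted p = 2.65e-08). Here too the 2 fractions did not overlap. SLC38A10, the arginine carrier SLC7A1 and the potassium chloride cotransporter SLC12A7 were likewise separated, by 1.47, 1.37 and 1.35.
At the other end stood SLC27A5, an enzyme-like member of the fatty acid carrier family, with 21.2, 26.6, 17.3 and 15.9 CPM in total and 6.89, 8.54, 5.13 and 3.93 CPM in polysome-associated RNA. Its difference was -1.75 (SE 0.233, edgeR adjusted p = 1.34e-07), with no overlap. The differences were -1.37 for SLC66A3, -1.01 for the CMP-sialic acid carrier SLC35A1 and -1.01 for the neutral amino acid carrier SLC38A6, and for each the call was kept in all 12 alternative fits of this comparison.

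**Figure D1:**
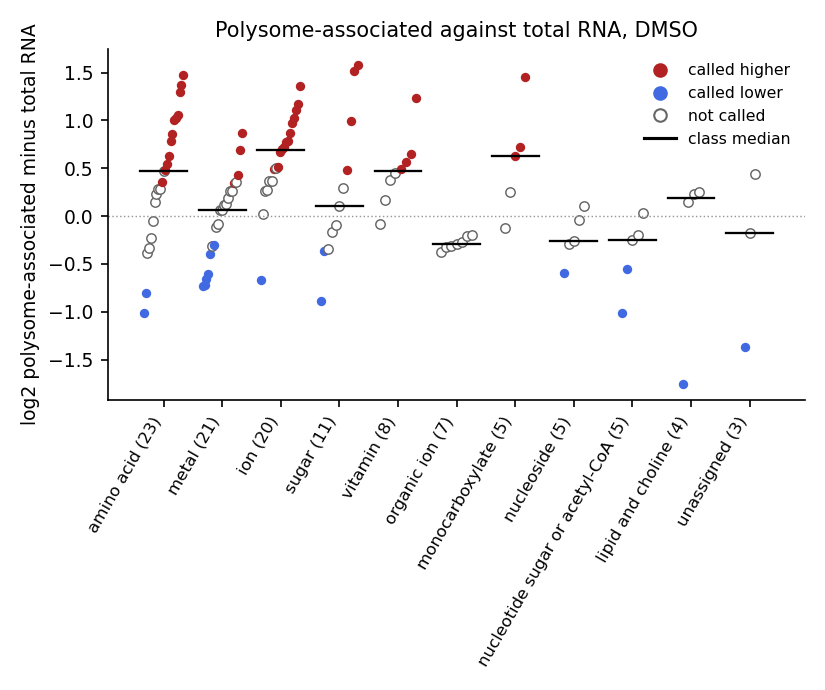
Log2 difference between polysome-associated and total RNA with DMSO for the 112 members by class, 1 point per gene, with the number of genes in brackets and the class median as a bar. Of the ion carriers 13 of 20 were called higher, and the lowest point is SLC27A5 at -1.75.

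Translational efficiency (TE) relates the polysome-associated RNA of a gene to its total RNA, and its change against DMSO was estimated with terms for plate and for replicate in each fraction. With cercosporamide, TE rose for 18 members and fell for 5 (adjusted p below 0.15 and more than 1.2 times in edgeR, adjusted after Benjamini-Hochberg), beside 15.8% of tested genes higher and 12.6% lower. The median change was 0.04 for members and -0.00 for all tested genes. DESeq2 size factors in place of TMM gave 16 higher and 8 lower. All tested genes had 1689 higher and 1820 lower there, against 1907 and 1515 with TMM. Without the shallow library, 15 rose and 5 fell, where all tested genes had 1805 higher and 1379 lower. SLC35A5, SLC37A3 and SLC38A4 then lost their calls. In that fit the changes were 1.02 for SLC3A2, 1.35 for SLC39A10, 1.22 for SLC16A1 and 1.25 for SLC35A1. The split was 10 and 0 without replicate 2 and 17 and 12 without replicate 3. All tested genes gave 1044 higher and 768 lower without replicate 2, and 1660 and 1677 without replicate 3. Of the risers 5, among them SLC12A2, SLC33A1, SLC35A5 and SLC44A1, and of the fallers 3, SLC27A5, SLC39A4 and SLC50A1, had the wider movement in total RNA, which is called buffering. Rises came from amino acid carriers (4 of 23), ion carriers (5 of 20), metal carriers (3 of 21) and carriers of nucleotide sugars or acetyl-CoA (3 of 5: SLC35A1, SLC33A1 and SLC35A5). Monocarboxylate (1 of 5), sugar (1 of 11) and lipid or choline carriers (1 of 4) gave the others. Of the fallers, 3 were metal carriers, 1 was a sugar carrier and 1 a lipid or choline carrier.

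**Figure D2:**
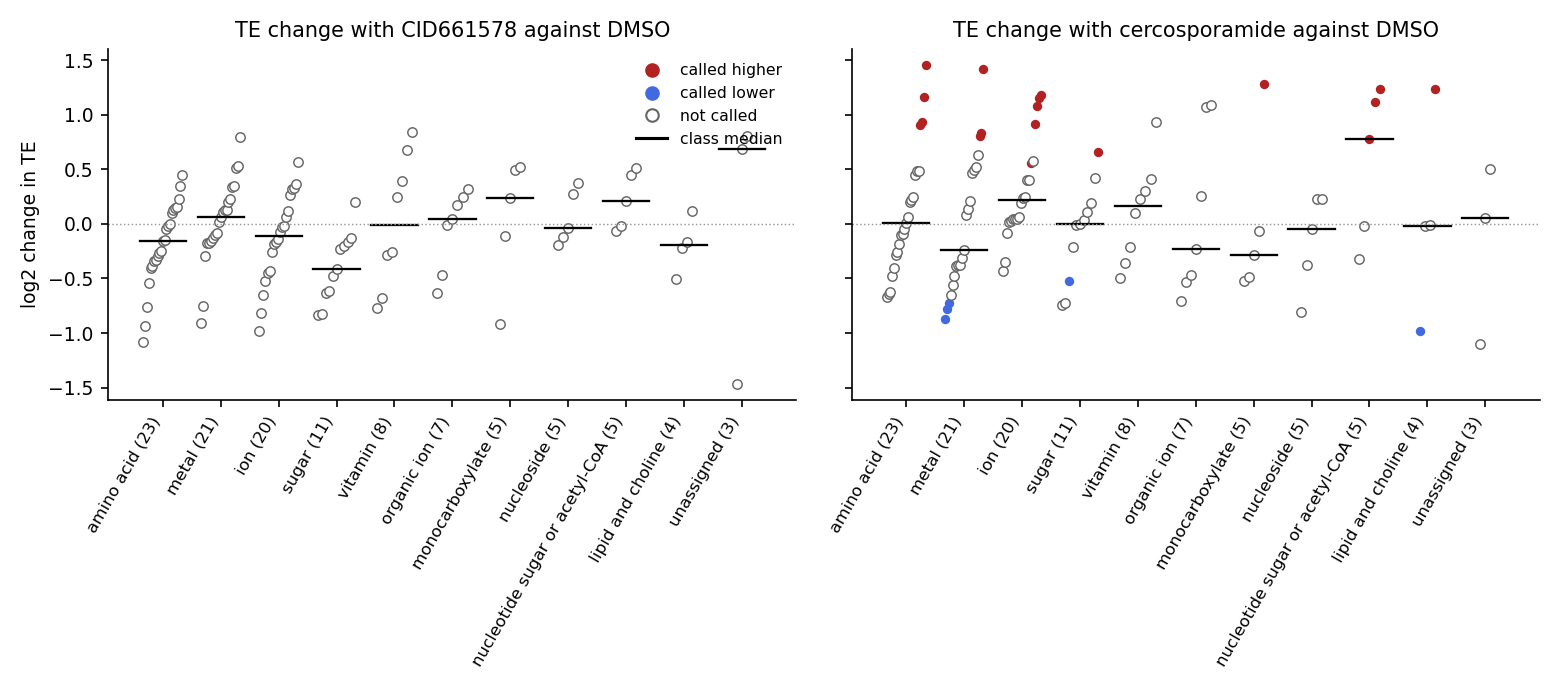
Log2 change in TE against DMSO for the 112 members by class with CID661578 (left) and cercosporamide (right), 1 point per gene, filled where called, with class medians as bars. No member was called with CID661578, and 18 higher and 5 lower with cercosporamide. Both panels use the same DMSO libraries.

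In polysome-associated RNA alone, 19 members rose and 10 fell with cercosporamide (adjusted p below 0.15, edgeR), against 18.3% of tested genes higher and 13.8% lower. The split depended on scaling, as did that of all genes. Members gave 13 and 15 under DESeq2 size factors, 15 and 17 in DESeq2 itself, 13 and 13 with the filterByExpr filter and 11 and 15 with no filter. Over all genes, 1891 were higher and 2151 lower with DESeq2 size factors and 1932 and 2189 in DESeq2, where the fit with TMM gave 2212 and 1669. The filterByExpr filter and no filter moved the median change of all genes to -0.13 and -0.12. Those fits called 1839 higher and 2260 lower of 14178 genes, and 1436 and 2131 of 28470. Without replicate 1 the split was 10 and 15, with that median at -0.01, while all genes gave 1894 higher and 1295 lower. Without the shallow library 16 rose and 9 fell, and without the replicate block 11 and 3. Over all genes those fits gave 2037 higher and 1533 lower, and 1244 and 677. In total RNA, no member was called with cercosporamide (edgeR), beside 0.29% of tested genes higher and 0.0912% lower. At an unadjusted p below 0.05, 4 members (3.57%) were higher and 7 (6.25%) lower there, beside 6.61% and 4.67% of tested genes, and DESeq2 called 1 higher, SLC27A5, and 1 lower.

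Among amino acid carriers, the heavy chain SLC3A2 (on chromosome 11 from 62856004 to 62888880) was the member with the highest level in total RNA with DMSO. In total RNA it had 829, 799, 2323 and 917 CPM with DMSO, in the order of replicates 1 to 4, and 775, 847, 883 and 648 CPM with cercosporamide. In polysome-associated RNA the values were 762, 944, 3189 and 927 CPM with DMSO and 1672, 1455, 3114 and 1859.6 CPM with cercosporamide. Replicate 3 with DMSO was far above the other 3 in both fractions, so the groups overlapped, although within each replicate the ratio of the fractions rose. TE changed by 1.16 (SE 0.282, edgeR adjusted p = 0.00706), higher in 4 of 4 replicates, and by 1.06 (edgeR adjusted p = 0.0437) without replicate 3. In polysome-associated RNA alone the change was 0.65 (SE 0.228, edgeR adjusted p = 0.0494), a call that was lost without replicate 1 and without the replicate block.
Values of the light chains SLC7A5 and SLC7A6 were lower instead. SLC7A5, the large neutral amino acid exchanger, had 173, 275, 403 and 243 CPM in polysome-associated RNA with DMSO and 189, 192, 204 and 138 CPM with cercosporamide, a change of -0.57 (SE 0.215, edgeR adjusted p = 0.0691). Leaving out replicate 3, replicate 4 or the replicate block ended the call of SLC7A5, as did the GC correction and an adjusted p below 0.05 (edgeR). SLC7A6, another partner of the heavy chain, had 62, 95.1, 55.3 and 77.3 CPM with DMSO and 48.1, 72.9, 37.4 and 47.7 CPM with cercosporamide, a change of -0.50 (SE 0.185, edgeR adjusted p = 0.0606) that was lower in 4 of 4 replicates. That call ended when replicate 4 or the replicate block was left out and at the stricter threshold. The ranges of both genes overlapped between the groups. For TE itself, the values were -0.26 (adjusted p = 0.65) and -0.48 (adjusted p = 0.232) in edgeR, neither of them called. The cystine carrier SLC7A11, a light chain outside the members by their rule, had 10.7, 9.85, 56.3 and 13 CPM in polysome-associated RNA with DMSO and 15.5, 18.6, 65.8 and 10.6 CPM with cercosporamide, with overlap. Its TE rose, at 0.73 (SE 0.317, edgeR adjusted p = 0.12).
SLC38A9, the arginine sensor of the lysosome, had 16.9, 14.6, 17.3 and 16.9 CPM in polysome-associated RNA with DMSO and 26.7, 26.7, 34.3 and 20.5 CPM with cercosporamide, with no overlap. Its TE change was 0.93 (SE 0.338, edgeR adjusted p = 0.0609), a call lost in 5 of 16 alternatives. TE of the neutral amino acid carriers SLC38A6 and SLC38A4 changed by 0.91 (adjusted p = 0.0488) and 1.45 (adjusted p = 0.0741) in edgeR, with calls lost in 3 and 6 of 16 alternatives, the latter gene at levels between 1.41 and 5.60 CPM in total RNA with DMSO. The glutamine carrier SLC1A5 and the arginine carrier SLC7A1 had TE changes of -0.10 and 0.20, neither called.

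**Figure D3:**
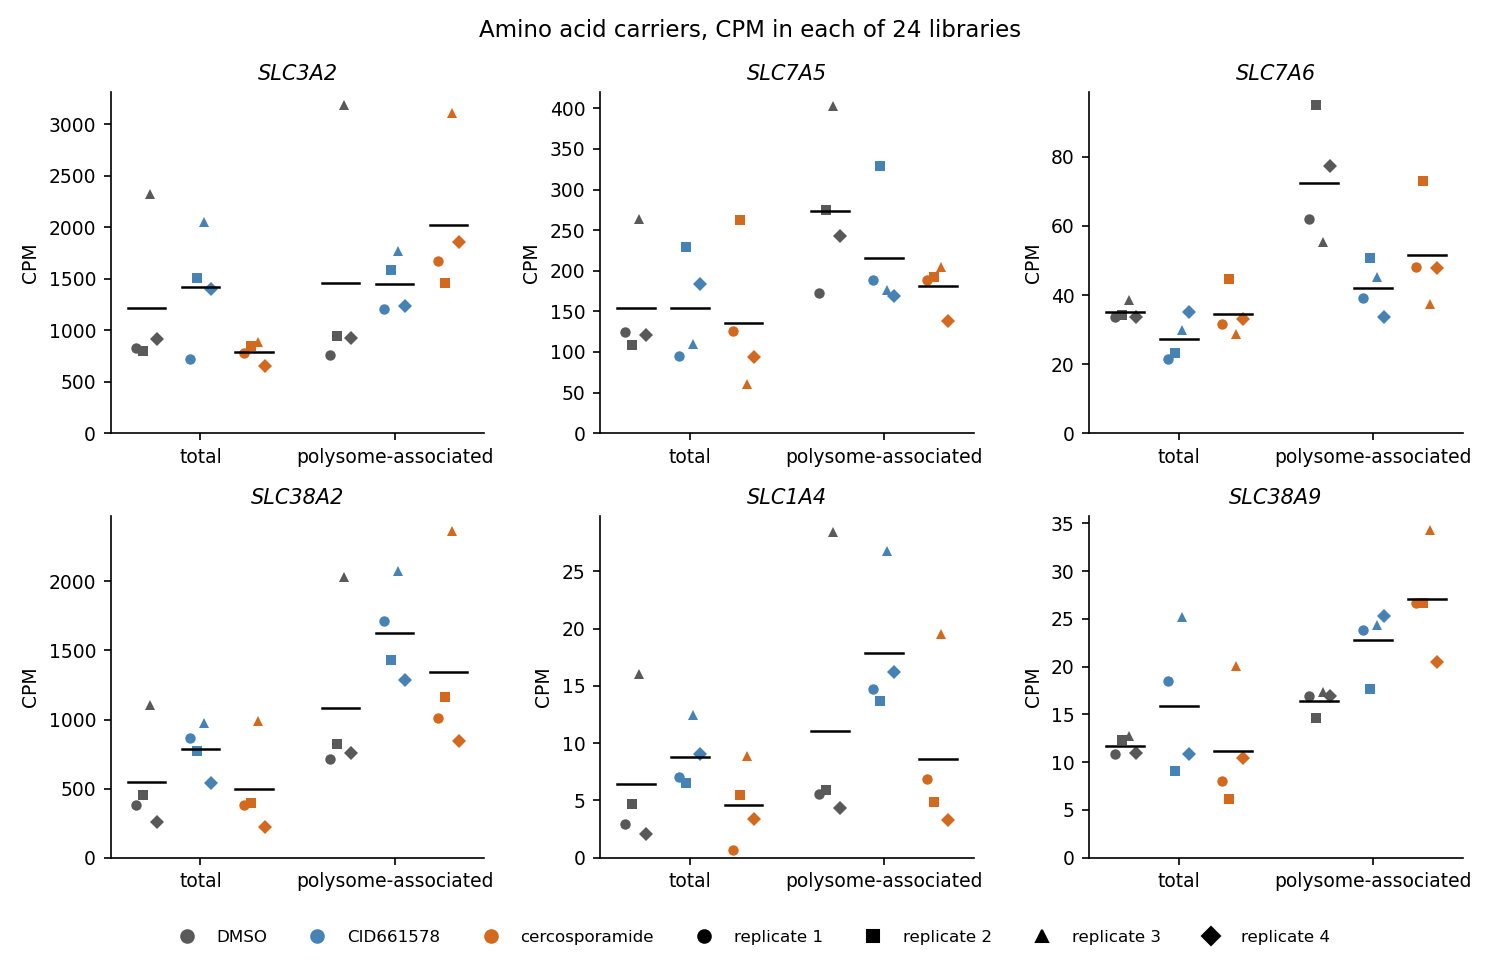
CPM of 6 amino acid carriers in total and polysome-associated RNA, 1 point per library, with treatment by colour, replicate by symbol and the group mean as a bar. SLC3A2 in DMSO replicate 3 reached 2323 CPM in total and 3189 CPM in polysome-associated RNA, above the other DMSO replicates.

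With DMSO, replicate 3 stood apart for some amino acid carriers. Of these 23 members, 11 had their highest DMSO level in replicate 3 in total RNA and 11 in polysome-associated RNA, and 5 and 9 had it in replicate 2. Over all 112 members the numbers were 25 and 24 for replicate 3 and 37 and 52 for replicate 2. With CID661578 replicate 3 was the highest for 5 and 3 of the 23 and replicate 2 for 10 and 13. With cercosporamide the numbers were 7 and 8 for replicate 3 and 12 and 7 for replicate 2. The transcription factor ATF4, known to drive amino acid carrier genes under stress, had 70.7, 146, 367 and 63.2 CPM in total RNA with DMSO. Its values were 149, 256, 531 and 271 CPM with CID661578 and 77.4, 114, 414 and 97.9 CPM with cercosporamide, so for this gene replicate 3 was the highest in each treatment. DDIT3 and CHAC1, stress genes that ATF4 is known to induce and that were picked after their values were seen, had 68.6, 47.5, 352 and 60.2 CPM and 14.3, 19.9, 118 and 7.68 CPM in total RNA with DMSO. What set this replicate apart was not tested.
With CID661578, ATF4 and DDIT3 moved. ATF4 changed by 1.13 (SE 0.229, edgeR adjusted p = 0.0408) in total RNA and 1.79 (SE 0.276, edgeR adjusted p = 0.000558) in polysome-associated RNA. DDIT3 changed by 2.06 (SE 0.318, edgeR adjusted p = 0.000558) in polysome-associated RNA. CHAC1 changed there by 2.24 (SE 0.411, edgeR adjusted p = 0.0036). ASNS, also examined afterwards, changed there by 0.27 (SE 0.331, edgeR adjusted p = 0.693) and was not called, at 0.83 to 3.99 CPM in total RNA with DMSO. With cercosporamide, ATF4 had a TE change of -0.67 (SE 0.289, edgeR adjusted p = 0.116).
The neutral amino acid carrier SLC38A2 (on chromosome 12 from 46358188 to 46372773) had 712, 826, 2032 and 757 CPM in polysome-associated RNA with DMSO and 1712, 1428, 2073 and 1284 CPM with CID661578. It was higher in 4 of 4 replicates, although DMSO replicate 3 lay inside the range of the treated libraries. The change was 0.72 (SE 0.194, edgeR adjusted p = 0.0449), and 0.91 (edgeR adjusted p = 0.054) without replicate 3. It was not called without replicate 1, without the replicate block or with the GC correction. SLC1A4, a carrier of serine and other small neutral amino acids, had 5.57, 5.91, 28.4 and 4.33 CPM with DMSO and 14.7, 13.7, 26.8 and 16.2 CPM with CID661578 in that fraction, a change of 1.09 (SE 0.269, edgeR adjusted p = 0.0286). Only replicate 3 did not rise, and without it the change was 1.47 (edgeR adjusted p = 0.00922). Without the replicate block the call of SLC1A4 was lost. These rises were not shared by the class. Of the 23 amino acid carriers, 2 rose and 2 fell in polysome-associated RNA with CID661578, beside 6.16% and 3.96% of tested genes. The median change of the class was -0.199. Mean levels with DMSO and CID661578 were 1455 and 1450 CPM for SLC3A2 and 357 and 325.5 CPM for SLC1A5, neither called.

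Because several of these carriers were high together in DMSO replicate 3, the promoters of all members were searched on both strands for TGATGNAAN, a form of the amino acid response element that ATF4 is known to bind. The RefSeq promoters on GRCh38.p14 cover 250 bases before to 50 after a start site, and 89 of the 112 members have at least 1 entry. The letters occurred in 3.61% of 35116 promoters, and 7 of the 89 members (7.87%) had them in at least 1 entry, where a gene can have several entries. SLC38A1, SLC27A5 and SLC39A11 were 3 of the 7, and the last 2 do not carry amino acids. For the other 4, of which SLC1A5 was not highest in DMSO replicate 3, the matches are shown 5′ to 3′ on the strand of the gene, with the letters or their reverse complement in capitals. SLC38A2 and SLC7A5 had no match in this window. A match of these letters is a description of the sequence.
SLC1A4 (chr2:64989383-64989407, plus strand): ggctcccgTTTGCATCAtctccagc
SLC3A2 (chr11:62881727-62881748, plus strand): caggactcCTTACATCAgctcc
SLC7A1 (chr13:29595665-29595689, minus strand): cgcactgcTGATGAAACctggcgcc
SLC1A5 (chr19:46784895-46784919, minus strand): gaagtggcTGATGCAAGctgtccag

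Metal carriers changed both ways with cercosporamide. SLC39A10, a zinc importer on chromosome 2 from 195575977 to 195737702, had 32.5, 25.9, 9.24 and 30.8 CPM in polysome-associated RNA with DMSO and 73.4, 59.6, 55.8 and 68.2 CPM with cercosporamide. The groups did not overlap, whereas in total RNA the values of 33.4, 41.6, 6.16 and 22.3 CPM with DMSO and 33.1, 32.3, 15.8 and 15.6 CPM with cercosporamide did. TE changed by 1.42 (SE 0.255, edgeR adjusted p = 0.00075), higher in 4 of 4 replicates, and this call was lost in 1 of 16 alternatives, the fit without plate and replicate terms. The related SLC39A6 changed in TE by 0.84 (SE 0.273, edgeR adjusted p = 0.0375), a call lost in 3 of 16 alternatives.
SLC30A1, the zinc exporter of the plasma membrane on chromosome 1 from 211571568 to 211579161, moved with both compounds. Its polysome-associated RNA was 50.2, 44.2, 32.6 and 34.1 CPM with DMSO, 86.4, 90.5, 97.1 and 82.4 CPM with CID661578 and 61, 54.8, 87.3 and 82.1 CPM with cercosporamide. Every treated library lay above every DMSO library. The change was 1.14 (SE 0.199, edgeR adjusted p = 0.00218) with CID661578 and 0.81 (SE 0.202, edgeR adjusted p = 0.00781) with cercosporamide, and both calls were kept in all alternatives run. In total RNA the values were 30.7, 60.4, 30.4 and 15.6 CPM with DMSO and 68, 72.6, 62.4 and 28.8 CPM with CID661578, a change of 0.82 (SE 0.231, edgeR adjusted p = 0.294) that was higher in 4 of 4 replicates but not called. TE changed by 0.81 (SE 0.263, edgeR adjusted p = 0.0369) with cercosporamide, and the call was lost without replicate 2 or 3, without replicate and plate terms and with the GC correction.
Lower polysome-associated RNA or lower TE was found for other metal carriers. The magnesium carrier SLC41A1, on chromosome 1 from 205789094 to 205813748, had 20.3, 41.6, 31.9 and 43.4 CPM in polysome-associated RNA with DMSO and 16.9, 25.7, 14.3 and 13.9 CPM with cercosporamide, ranges that overlapped through DMSO replicate 1. It changed by -0.93 (SE 0.229, edgeR adjusted p = 0.00708), and its TE by -0.87 (SE 0.346, edgeR adjusted p = 0.0865). SLC39A9, a zinc importer of internal membranes, had 80, 103, 73.1 and 75.9 CPM with DMSO and 49.9, 68.1, 41 and 57.6 CPM with cercosporamide, without overlap, a change of -0.63 (SE 0.17, edgeR adjusted p = 0.0127). The heme carrier SLC48A1 changed in TE by -0.78 (SE 0.302, edgeR adjusted p = 0.0784), and the zinc carrier SLC39A4 by -0.72 (SE 0.292, edgeR adjusted p = 0.0918). For SLC39A4 the mean in polysome-associated RNA was 29.4 CPM with DMSO and 28.4 CPM with cercosporamide. Its mean in total RNA was 47.1 CPM with DMSO and 75.6 CPM with cercosporamide, without overlap, so the lower TE came with more total RNA. The TE calls of SLC41A1, SLC48A1 and SLC39A4 were lost in 6, 6 and 7 of 16 alternatives. The copper importer SLC31A1 and the zinc carrier SLC39A14 were not called for TE with either compound, with 0.52 and 0.21 for cercosporamide. Metallothioneins, which store zinc, were examined after the carriers. TE of MT2A and MT1X changed by -1.29 (SE 0.258, edgeR adjusted p = 0.00171) and -1.52 (SE 0.292, edgeR adjusted p = 0.00124) with cercosporamide.

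The factor MTF1 is known to bind TGCACNC or TGCGCNC in metal-responsive promoters. These letters occurred on either strand in 29.6% of the 35116 promoters and in 42 of the 89 members (47.2%). SLC30A1 had 2 matches in its entry, shown 5′ to 3′ on the minus strand of the genome with the match as its reverse complement in capitals. Given how common the letters are, nothing further is drawn from them.
SLC30A1 match near the start site (chr1:211579123-211579145, minus strand): accgggccGAGTGCAgctgccgt
SLC30A1 match upstream (chr1:211579196-211579218, minus strand): ggggttccGAGTGCAaagcaaag

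TE of 5 of the 20 ion carriers rose with cercosporamide and that of none fell, beside 15.8% and 12.6% of all tested genes. The sodium bicarbonate cotransporter SLC4A7, on chromosome 3 from 27372721 to 27484420, had 57, 63.9, 41 and 44.8 CPM in polysome-associated RNA with DMSO, 71.3, 95.6, 72.7 and 86.4 CPM with CID661578 and 84.2, 113, 145 and 105 CPM with cercosporamide. Both treated groups lay above DMSO. TE changed by 0.91 (SE 0.234, edgeR adjusted p = 0.00995) with cercosporamide and 0.32 (SE 0.233, edgeR adjusted p = 0.691) with CID661578, and only the former was called, though not with GC trends removed or without replicate and plate terms. The sodium potassium chloride cotransporter SLC12A2 had 28.1, 27.7, 19.6 and 19.7 CPM in total RNA with DMSO and 19.6, 16.1, 9.77 and 16.4 CPM with cercosporamide, lower in 4 of 4 replicates, with the highest treated value just below the lowest with DMSO. In polysome-associated RNA it had 34.2, 36.7, 18.8 and 26 CPM and 51.5, 32.5, 34.3 and 44.4 CPM, so that TE changed by 1.16 (SE 0.301, edgeR adjusted p = 0.0108) with most of the movement in total RNA. That call was lost in 2 of 16 alternatives. The sulfate carrier SLC26A2 had 233, 228, 227 and 216 CPM in polysome-associated RNA with cercosporamide against 138, 168, 128 and 166 CPM with DMSO, without overlap. Its TE change of 0.56 (adjusted p = 0.0912) in edgeR turned to -0.066 with the GC correction, and its call was lost in 8 of 16 alternatives. The sodium calcium exchanger SLC8A1 was also among the 5, with 1.08 (adjusted p = 0.135) in edgeR, and lost its call in 9 of 16 alternatives.

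Lactate and sugar carriers differed among themselves. SLC16A1, which moves lactate and pyruvate with protons, lies on chromosome 1 from 112911847 to 112957593 and had 174, 198, 199 and 282 CPM in polysome-associated RNA with DMSO and 341, 355, 312 and 509.8 CPM with cercosporamide. In total RNA the values were 144, 132, 136 and 133 CPM and 97.7, 79.6, 124 and 102 CPM. The treated libraries lay above DMSO in the polysome-associated fraction and below it in total RNA, so TE changed by 1.28 (SE 0.244, edgeR adjusted p = 0.00119). That call was kept in all 16 alternatives, as was that of SLC35A1, on chromosome 6 from 87470623 to 87512336. SLC35A1 had 44.4, 30.7, 21.1 and 32.1 CPM in polysome-associated RNA with DMSO and 75.3, 62.6, 67.2 and 127 CPM with cercosporamide, without overlap, and a TE change of 1.23 (SE 0.266, edgeR adjusted p = 0.00296). For the other lactate carrier, SLC16A3, the TE change was -0.06 (adjusted p = 0.923) in edgeR.
Among 11 sugar carriers, SLC37A3 rose in TE, at 0.66 (SE 0.283, edgeR adjusted p = 0.116), and SLC50A1 fell, at -0.52 (SE 0.233, edgeR adjusted p = 0.129). SLC50A1, on chromosome 1 from 155135344 to 155138857, had 303, 268, 224 and 206 CPM in total RNA with DMSO and 357, 329.5, 267 and 286 CPM with cercosporamide. Its polysome-associated values were 124, 165, 131 and 119.6 CPM and 98.8, 114, 95.4 and 170.1 CPM, and only the shallow replicate 4 rose there. The calls of SLC37A3 and SLC50A1 were lost in 12 and 10 of 16 alternatives. SLC5A3 had 92.6, 101, 70.9 and 89.4 CPM in polysome-associated RNA with cercosporamide, each above the DMSO values, and changed by 0.60 (SE 0.174, edgeR adjusted p = 0.0195). With the GC correction that change was 0.06, without a call. The glucose carrier SLC2A6 had TE changes of -0.82 with CID661578 and -0.72 with cercosporamide, neither called.

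**Figure D4:**
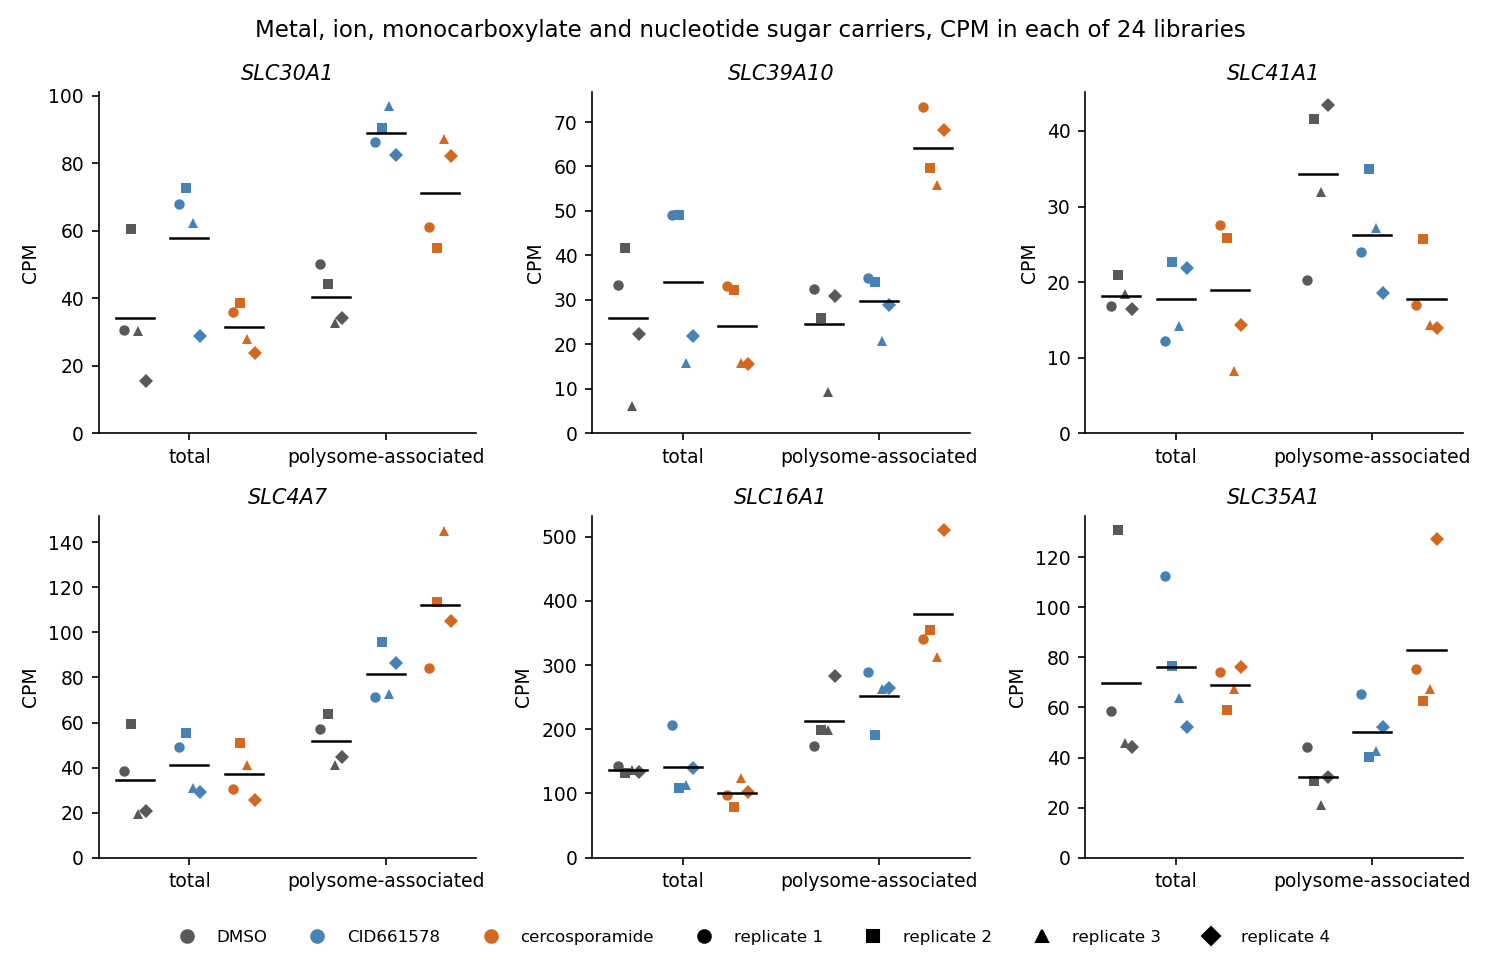
CPM of 6 metal, ion, monocarboxylate and nucleotide sugar carriers in total and polysome-associated RNA, 1 point per library, with treatment by colour, replicate by symbol and the group mean as a bar. In polysome-associated RNA, SLC30A1 and SLC4A7 lay above DMSO with both compounds, and SLC39A10, SLC16A1 and SLC35A1 with cercosporamide.

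With CID661578, 0 of the 112 members were called for a change in TE (edgeR, Benjamini-Hochberg adjusted), where 0.00829% of tested genes were higher and 0.199% lower. At an unadjusted p below 0.05, 2 members (1.79%) were higher and 6 (5.36%) lower, beside 4.92% and 3.95% of tested genes, and DESeq2 and the analysis of partial variance each called 0. The program anota2seq, which the study used, was not run here. With it, the study reported mRNAs of raised and of lowered translational efficiency shared by both compounds. The 0 calls here belong to the edgeR fit and do not show that TE was unchanged. The median change was -0.08 for members and 0.03 for all tested genes. Without replicate 1, 9 members were called lower, in a fit that called 98 of all 12058 genes higher and 248 lower. SLC16A3 had a change of -0.92 (SE 0.323, edgeR adjusted p = 0.489) with all replicates. In total RNA, CID661578 called 0 members (edgeR), beside 0.315% of tested genes higher and 0.133% lower. There, 6 members (5.36%) were higher and 4 (3.57%) lower at an unadjusted p below 0.05, beside 3.65% and 3.52% of tested genes, and DESeq2 called SLC30A1 and SLC38A2 higher. Without replicate 3, edgeR called SLC38A2 alone, with 1.02 (edgeR adjusted p = 0.0332).
In polysome-associated RNA with CID661578, 7 members rose and 5 fell (adjusted p below 0.15, edgeR), beside 6.16% of tested genes higher and 3.96% lower. Besides SLC30A1, SLC1A4, SLC38A2 and SLC4A7, the risers were SLC35A1, the zinc carrier SLC30A5 and the phosphate carrier SLC20A1. The fallers were SLC7A6, SLC66A1, SLC10A3, the folate carrier SLC19A1 and the potassium chloride cotransporter SLC12A7. Of 11 alternatives, SLC20A1 lost its call in 10, SLC12A7 in 8, SLC30A5 and SLC10A3 in 7, SLC19A1 in 6 and SLC35A1, SLC66A1 and SLC4A7 in 5. Without replicate 1, 3 or 4, 5 members were called in each fit. Over all genes those fits gave 299 higher and 189 lower, 251 and 164, and 386 and 144. SLC7A6 had 39.2, 50.6, 45.2 and 33.5 CPM with CID661578, each below the DMSO values given above, and changed by -0.76 (SE 0.183, edgeR adjusted p = 0.0243). Only SLC30A1 was called without the replicate block, which left 1 higher and 0 lower, and the GC correction left 2 and 1. Over all genes those fits gave 33 higher and 36 lower of 12058, and 179 and 102 of 11571. DESeq2 gave 9 and 12, where 831 of all 10889 genes were higher and 673 lower. The median change was -0.17 for members and -0.01 for all tested genes.

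The compounds were also tested against each other at their own doses, which differ. The TE change was higher with CID661578 than with cercosporamide for 3 members and lower for 14 (edgeR, Benjamini-Hochberg adjusted), beside 7.93% of tested genes higher and 7.57% lower. The median difference was -0.18 for members and -0.03 for all tested genes. SLC39A10 differed by -1.54 (SE 0.253, edgeR adjusted p = 0.00541), SLC38A4 by -2.54 (SE 0.547, edgeR adjusted p = 0.0106) and SLC16A1 by -1.04 (SE 0.244, edgeR adjusted p = 0.0162). SLC3A2 differed by -1.20 (SE 0.283, edgeR adjusted p = 0.0162), lower in 4 of 4 replicates. SLC39A10, SLC38A4, SLC16A1 and SLC3A2 kept these calls in 13 of 14 alternatives each. SLC48A1 and SLC16A5 were among those higher with CID661578, with calls lost in 3 and 7 of 14, that of SLC16A5 also without the shallow library. Without the shallow library the counts were 1 and 11, in a fit that called 929 of all 12058 genes higher and 819 lower. With the GC correction they were 8 and 8, in a fit that called 1251 of all 11571 genes higher and 815 lower. Without replicates 1, 2 and 4 in turn the splits were 0 and 8, 0 and 5, and 1 and 8. Over all genes those fits gave 276 and 311, 221 and 172, and 861 and 750. SLC30A1, which had a TE call with cercosporamide only, had no call in this test, with -0.47 (SE 0.261, edgeR adjusted p = 0.299), and the sizes of its TE changes were 0.34 with CID661578 and 0.81 with cercosporamide.

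The members called for TE with cercosporamide differed in the GC content of their transcripts. The 18 risers had a median of 39.6% GC, between 37.1% and 57.8%, and 17 of them lay below 46%, the exception being SLC3A2. The 5 fallers had a median of 57.7%, and all 112 members one of 52.7%, beside 47.5% for 11571 tested genes with a value. Across the 112 members, the TE change with cercosporamide and GC content had a Pearson r of -0.594 and a Spearman rho of -0.568, and across the 11571 genes r was -0.514. For CID661578 the members gave r = -0.544 and rho = -0.57, and all genes -0.539 and -0.567. Over all genes called for cercosporamide, the median was 40.2% GC for risers and 53.1% for fallers, so the pattern was not particular to the members. Genes are not independent replicates, and both comparisons use the same DMSO libraries. With each library's trend over GC content removed, 10 members rose and 4 fell in TE with cercosporamide. That fit called 1054 of all 11571 genes higher and 1399 lower. Of the 18 risers 6 kept their calls, among them SLC3A2, SLC39A10, SLC16A1, SLC35A1 and SLC12A2, and 12 lost them. Of the 5 fallers 0 kept their calls, while 4 members were newly called higher and 4 lower. Whether GC content itself had a part in the changes was not tested.

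**Figure D5:**
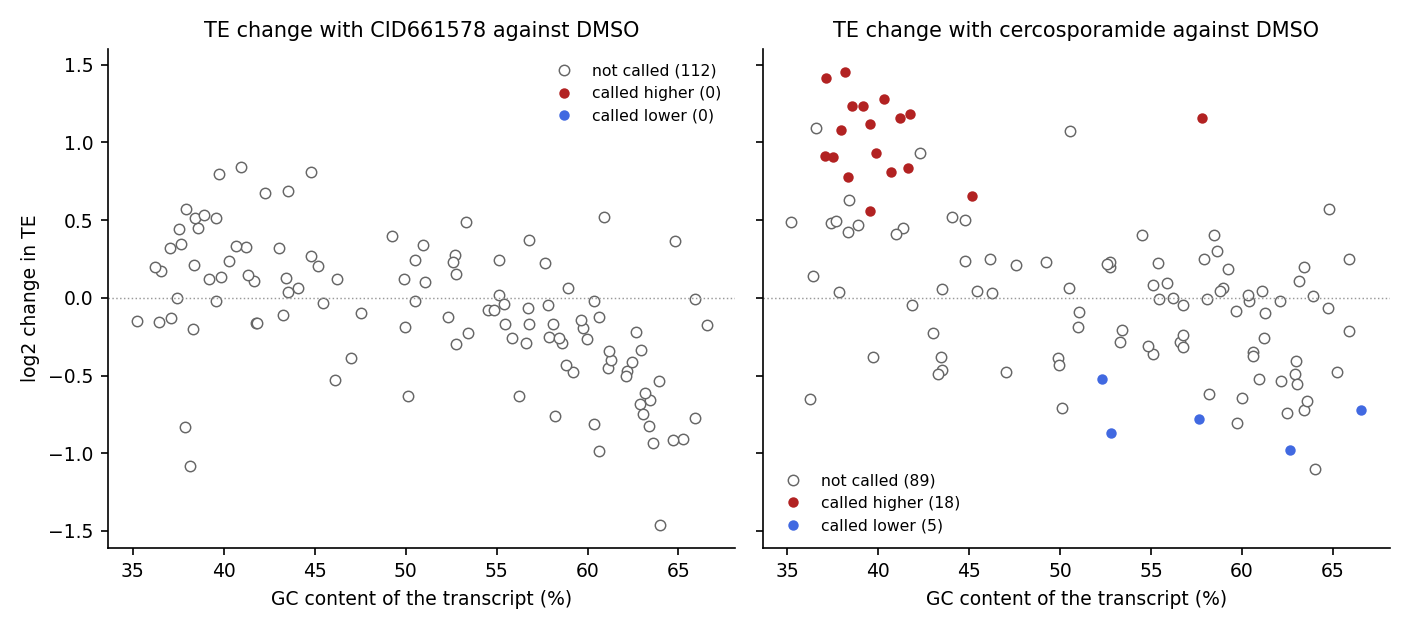
Log2 change in TE against GC content of the transcript (percent) for the 112 members with CID661578 (left) and cercosporamide (right), 1 point per gene, filled where called. With cercosporamide, 17 of the 18 risers lie below 46% GC, and SLC3A2 lies at 57.8%. Both panels use the same DMSO libraries.

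Other transport genes give a frame for these counts. Among 35 mitochondrial SLC25 carriers, TE with cercosporamide rose for 4 and fell for 9 (edgeR), beside 15.8% higher and 12.6% lower of all tested genes, with a median change of -0.27. ABC transporters gave 4 and 1 of 26, ion-pumping ATPases 5 and 0 of 13, and the membrane insertion machinery 9 and 8 of 34. The ATPases that rose were the copper pump ATP7A, the calcium pumps ATP2B1 and ATP2C1, ATP13A3 and the sodium pump subunit ATP1B1, with 1.06 (SE 0.267, edgeR adjusted p = 0.00888) for ATP2B1. Of 16 carrier partners and regulators, ARRDC3 and EMB rose and ATF4 and CHP1 fell. With CID661578, none of these lists had a TE call. In polysome-associated RNA, the calls with CID661578 were 0 higher and 2 lower for SLC25 carriers, 0 and 3 for ABC transporters, 0 and 1 for ATPases, 4 and 0 for insertion genes and 3 and 1 for partners and regulators, beside 6.16% and 3.96% of all tested genes. With DMSO, 17 of 26 ABC transporters were higher and 2 lower in polysome-associated RNA than in the total, beside 27.7% and 30.6% of all tested genes. The numbers were 5 and 11 of 35 for SLC25 carriers, 8 and 2 of 13 for ATPases, 4 and 19 of 34 for insertion genes and 5 and 5 of 16 for partners and regulators.
Among the genes left out of the members by their rule, the glucose carrier SLC2A1 had 93, 116, 57.7 and 88.1 CPM in total RNA with DMSO and 184, 373, 115 and 320.3 CPM with CID661578. Although each replicate pair was higher, the ranges met, and the change was 1.41 (SE 0.236, edgeR adjusted p = 0.0106). TXNIP, which is known to limit glucose uptake, changed by -2.04 (SE 0.444, edgeR adjusted p = 0.0658) in total and -2.79 (SE 0.406, edgeR adjusted p = 0.000296) in polysome-associated RNA, at 3.63, 0.814, 9.80 and 5.21 CPM in total RNA with DMSO and 0.787, 0.33, 2.79 and 0.755 CPM with CID661578. SLC7A11 changed by 1.70 (SE 0.286, edgeR adjusted p = 0.00149) in polysome-associated RNA with CID661578. SLC40A1 did not pass the filter.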

How the data were processed

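The authors took out rRNA reads (BBDuk), mapped to hg38 (HISAT2) and counted with featureCounts, at default settings, on RefSeq genes. The counts they deposited are whole numbers for 54583 genes in 24 libraries, without normalization. No 2 libraries were copies. The filter of the study, no 0 in any column, left 12058.

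Counts were scaled with TMM over all libraries and tested in edgeR 4.0.16 under R 4.3.3 (quasi-likelihood, Benjamini-Hochberg adjusted), after a check on simulated data. The TE fit held terms for plate, replicate in each fraction and compound in the polysome-associated fraction; each fraction was also fitted alone with the replicate as a block, and the DMSO libraries with the plate as a block. The replicate number pairs libraries because the study names it as the batch: deviations from group means correlated with r above 0.1 in 13 of 16 pairs of treated and DMSO libraries (-0.012 to 0.561). TE calls needed an adjusted p below 0.15 and a change above 1.2-fold, calls in single fractions only the former. CPM are the values of edgeR's cpm function on TMM-scaled library sizes. GC content, length and positions of members came from GENCODE v44 on GRCh38, for all 112 members, and promoters from RefSeq.

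Members and lists were chosen with earlier results of these data known. Named genes are 22 fixed carriers of amino acids, sugars, metals and ions (20 are members), the members called for TE with CID661578, the 3 called members with the lowest p in each direction and class for TE with cercosporamide (average log2 CPM of at least 3, same sign in 4 replicates), up to 5 in total and 3 each way in polysome-associated RNA, 4 for the difference between compounds, the 4 highest and 4 lowest with DMSO, and the 5 highest per kb. Not all are described, and some genes are not reported here. Other genes named, among them SLC26A2, SLC37A3, SLC39A4, SLC39A11, SLC30A5, SLC30A6, SLC8A1, SLC10A3, SLC12A7, SLC16A5, SLC44A1, SLC35A5 and the stress and metallothionein genes, were chosen after their values were seen. Alternatives changed the replicate and plate terms, scaling, filter, test, threshold, GC trend, libraries and replicates.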

Additional observations from a re-analysis of the deposited data

Results flagged for a closer look

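In 18 of 330 groups of 4 libraries, 1 library stood far from the other 3, its gap to the nearest being above Dixon's limit for the range. Chance flags about 1 in 20 groups, the groups share libraries, and 8 of the flags fall in DMSO replicate 3.
DMSO replicate 3 was the highest for SLC3A2 in total RNA (2323 CPM, the others 799 to 917) and in polysome-associated RNA (3189 CPM, the others 762 to 944). It was also the highest in total RNA for SLC7A5 (263 CPM), SLC7A6 (38.6 CPM) and SLC7A1 (62.9 CPM) and in polysome-associated RNA for SLC1A4 (28.4 CPM) and SLC38A2 (2032 CPM). In polysome-associated RNA it was the lowest for SLC30A7 (5.97 CPM).
With CID661578, replicate 2 was the highest in polysome-associated RNA for SLC7A5 (329.5 CPM), SLC1A5 (551 CPM), SLC12A4 (35.8 CPM) and SLC10A3 (25.5 CPM). Replicate 1 was the highest in total RNA for SLC38A6 (40.6 CPM) and SLC30A6 (68 CPM).
Among the other DMSO libraries, replicate 2 was the lowest for SLC38A9 in polysome-associated RNA (14.6 CPM) and the highest for SLC35A1 in total RNA (131 CPM), and replicate 4 was the lowest for SLC4A2 in total RNA (169.6 CPM). Of the reads on genes in the polysome-associated libraries with cercosporamide, the members took 0.893% in the shallow replicate 4, the lowest of the 4. The causes of these differences were not tested.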

How the results depend on the processing

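Of 1426 values for calls of the described genes under 16 alternative settings, 1056 kept both direction and call, 368 lost the call in the same direction and 2 turned. With each library's GC trend removed, the TE change of SLC26A2 with cercosporamide was -0.066 and the polysome-associated change of SLC30A6, a riser otherwise, -0.2155 (call lost in all 12 alternatives). Of 104 alternative counts of called members, 29 moved by more than 1.5 times with both directions summed. In the DMSO comparison of fractions the sum did not, but the number higher went from 40 to 61 and that lower from 16 to 8 with each fraction scaled on its own, and that lower to 10 with no filter, to 10 without the replicate block and to 9 without replicate 1.
Without the replicate block, which ignores the pairing by replicate number, the number of called members was 1 instead of 12 in polysome-associated RNA with CID661578, 14 instead of 29 there with cercosporamide and 10 instead of 17 for the TE difference between compounds. Without replicate and plate terms, 3 instead of 23 were called for TE with cercosporamide and 0 for the TE difference. With no filter, 1 was called for TE and 2 for total RNA with CID661578, and 9 for the TE difference, while the median TE change of all genes with cercosporamide moved to -0.14. DESeq2 called 2 in total RNA with either compound and 21 in polysome-associated RNA with CID661578. Removal of the GC trends left 14 for TE with cercosporamide, 2 and 5 for total RNA with CID661578 and cercosporamide, and 3 and 13 for polysome-associated RNA. At an adjusted p below 0.05 in edgeR, 12 were called for TE with cercosporamide, 6 for the TE difference, and 4 and 15 for polysome-associated RNA with CID661578 and cercosporamide.
When 1 replicate was left out, the number ranged from 0 to 9 for TE with CID661578, 10 to 29 for TE with cercosporamide, 5 to 12 for the TE difference, 0 to 1 for total RNA with CID661578 and 5 to 14 for polysome-associated RNA with CID661578. The causes of these shifts were not tested. Fewer replicates leave fewer degrees of freedom by construction, and members with few reads in the shallow library limit what depth allows there.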
